A study of Homo sapiens with 3 samples.

Results

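A set of 8 genes of the second heart field and pharyngeal mesoderm, ISL1, TBX1, SIX2, EYA1, EBF2, FOXC1, FOXC2 and TMEM100, were followed in chambered cardiac organoids (CCOs), which are hollow cardiac aggregates grown from human pluripotent stem cells. The 8 genes were taken by name from the 32738 genes of the merged count table, and each of them was listed there. Counts of unique molecular identifiers (UMIs, 1 per captured RNA molecule) came from droplet single-cell RNA sequencing at differentiation day 8 (D8), day 14 (D14) and day 21 (D21), with 1 library a day. Every organoid was grown from H7, a line of human embryonic stem cells, without a transgene, deletion or drug treatment. In each, CHIR99021, which activates Wnt signalling, and then IWP-2, which blocks it, had been used to direct cells to the cardiac fate, and the cells had been gathered in Matrigel on day 7. The D8 and D14 organoids were in a growth medium with EGF, FGF-2, Wnt-3A, cardiotrophin-1, thrombin and EDN1, whereas the D21 organoids had been moved after D14 to RPMI/B27 in a spinner flask. Day, medium and library therefore cannot be told apart, and no test between days was possible. Differences are given as folds with exact 95% intervals that cover counting error only.

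The second heart field is the pool of mesoderm behind the early heart tube that adds the outflow tract, right ventricle and part of the atria, and it shares its origin with the pharyngeal mesoderm that forms head muscles. ISL1 and TBX1 are transcription factors of these progenitors, with ISL1 usually turned down as cells become cardiomyocytes (CMs). EYA1 acts as a transcriptional coactivator, FOXC1 and FOXC2 are forkhead factors of mesoderm and vessels, EBF2 is a helix-loop-helix factor of mesenchymal precursors, and TMEM100 is a membrane protein downstream of ALK1 signalling in endothelium.

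The DNA just upstream of ISL1 and of FOXC1 is shown because these had the most UMIs on each day among the 4 of the 8 members matched in RefSeq. From D14 to D21 they were 15.9- and 1.55-fold lower over all cells, and 13.2- and 12.7-fold lower in cardiomyocyte-like cells. Both stretches are on the plus strand of GRCh38.p14, and capitals mark CCAAT or its reverse complement ATTGG. The ISL1 stretch is chr5:51383198-51383390, which holds 2 such boxes beginning 121 and 75 bases before the RefSeq start, and the FOXC1 stretch is chr6:1609665-1609914, with 1 box beginning 86 bases before it.
ISL1: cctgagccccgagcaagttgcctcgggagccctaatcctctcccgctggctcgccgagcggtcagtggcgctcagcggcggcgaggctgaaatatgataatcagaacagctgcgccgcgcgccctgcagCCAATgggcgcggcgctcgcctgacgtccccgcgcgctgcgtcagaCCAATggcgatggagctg
FOXC1: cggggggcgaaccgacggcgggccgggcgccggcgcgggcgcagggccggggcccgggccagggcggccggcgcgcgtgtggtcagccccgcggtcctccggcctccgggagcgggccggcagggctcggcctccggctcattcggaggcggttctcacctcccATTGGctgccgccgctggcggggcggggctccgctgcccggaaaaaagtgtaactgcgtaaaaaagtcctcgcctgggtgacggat
Of 5 motifs searched on both strands in the 250 bases before each start, CCAAT was in 32.0% of 35116 windows and in ISL1, SIX2 and FOXC1, and AGATAA was in 9.17% and in ISL1 and SIX2. TATAAA (10.7% of windows), GTAAACA (2.98%) and CACGTG (6.34%) were in none of the 4 matched members. No motif searched contains another, and a match here is a description of letters only.

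After filters on genes and mitochondrial reads, the D8, D14 and D21 libraries kept 2657, 3585 and 1946 of the 17327 barcodes in the table, with a median of 15316, 12282 and 14106 UMIs a cell. A UMI count of 0 over all cells of a day was set to 3 counts, which is 0.0641, 0.0597 and 0.0971 UMIs per 1000000 UMIs (CPM) by day. Cells fell into 19 clusters made without the 8 genes, of which 10 took a name from markers, and 16 held at least 90% of their cells from a single day, so such a cluster may be a library and not a cell type. Clusters called CM-like held 470, 1088 and 541 cells, and different clusters carried the name on each day, mainly cluster 5 at D8, cluster 1 at D14 and cluster 4 at D21. Dividing cells were likewise mainly cluster 8 at D8, cluster 7 at D14 and cluster 15 at D21. Cluster 6, called epithelial-like, passed 7 of 8 epithelial and 3 of 8 hepatic endoderm markers, and its leading genes include the endoderm genes TTR, APOA2 and FOXA2. At D21, 1982 further barcodes met the gene limits but not the mitochondrial limit, against 11 at D8 and 204 at D14, and 33 barcode sequences occurred in 2 libraries. Fewer cells of a type and less RNA per cell cannot be told apart in sums over all cells. Markers of other lineages that also use these genes were present: nephric markers summed to 4820, 2079 and 462 UMIs by day, surface ectoderm markers to 3007, 3565 and 285, neural crest markers to 1689, 1617 and 757, neuronal markers to 336, 417 and 2328 and skeletal myogenic markers to 97, 52 and 13. Of the listed markers, MYOG, NEUROD1 and TUBB3 were at 0 on each day, and SOX10 and FOXD3 were at 0 at D21. Whether a marker at 0 could be counted at all in this table was not tested, so a 0 was not read as absence. The part of cells of other lineages in the levels below was not tested.

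ISL1, which marks the multipotent progenitors of the second heart field, was highest at D14 and nearly gone at D21. The D8 library held 4413 ISL1 UMIs, or 94.4 CPM (95% interval 91.6 to 97.2). The D14 library held 7667, or 152.6 CPM (149 to 156), and the D21 library 297, or 9.61 CPM (8.55 to 10.8). None of these intervals overlap. D14 was 1.62-fold above D8, a log2 ratio of 0.69 (0.64 to 0.75), and D21 was 15.9-fold below D14, a log2 ratio of −3.99 (−4.16 to −3.82); both steps share the D14 library. With every cell thinned to 4000 UMIs, the share of cells with an ISL1 UMI was 27.0% at D8 (25.3 to 28.7, exact Clopper-Pearson), 39.1% at D14 (37.5 to 40.7) and 3.70% at D21 (2.91 to 4.64), and no cell was lost to thinning. Unthinned shares were 56.7%, 64.3% and 9.66%. In endothelial-like cells, the named group with the lowest ISL1 level at D8 and D14, the thinned share was 3.77% at D14 (0.460 to 13.0, 53 cells, median 11280 UMIs) and 5.26% at D21 (0.644 to 17.7, 38 cells, median 13934 UMIs). That is 2 of 38 cells at D21, too few to set a background for that day. At D21 the thinned share was 6.17% in fibroblast-like cells (4.63 to 8.04) and 1.29% in CM-like cells (0.522 to 2.65), intervals that do not overlap.

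**Figure D1:**
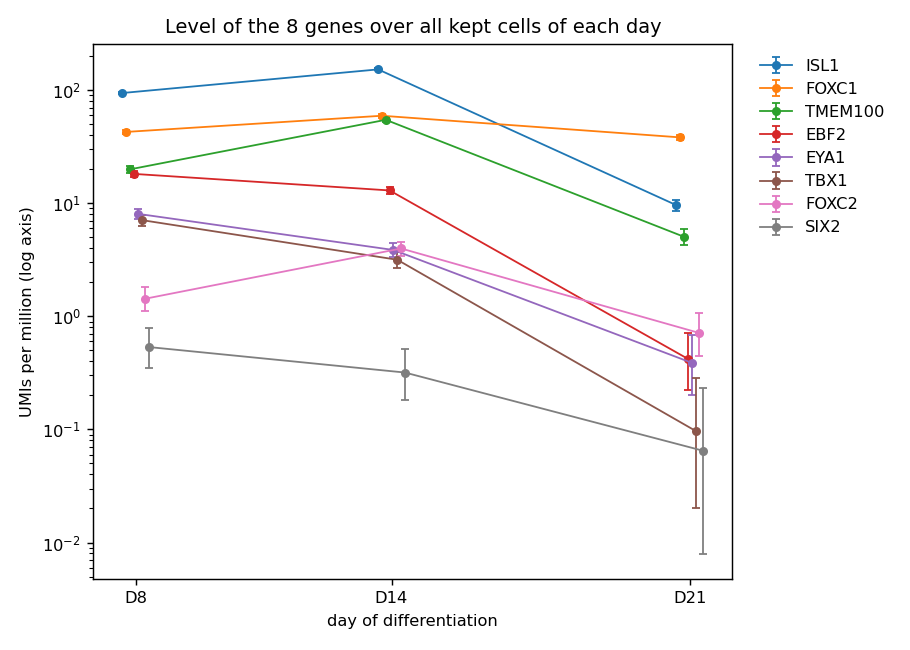
Level of the 8 genes over all kept cells at D8, D14 and D21 in CPM on a log axis; points are the sum of 1 library and bars the exact 95% counting interval. ISL1, FOXC1, FOXC2 and TMEM100 were highest at D14, EBF2, EYA1 and TBX1 at D8, and the SIX2 intervals of D8 and D14 overlap.

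Within a day, ISL1 was spread over many clusters at D8 and D14. At D8, among clusters of 50 or more cells, the order was cluster 0 (leading genes TSHZ2, EBF2 and HAND1) at 136.6 CPM, dividing cells at 115.2, epithelial-like cells at 96.8, CM-like cells at 69.4, cluster 12 (NMB, DIO3, NPPB) at 46.6 and cluster 11 (SFRP2, POU5F1, SOX2) at 16.3. No neighbours in that order had overlapping intervals. The 47 endothelial-like cells of D8, outside that order, held 4 ISL1 UMIs. At D14 it was highest in cluster 13 (SST, EBF2, TMEM100) at 252.5 CPM (234 to 272) and cluster 16 (PMEL, CYP26A1, ATF5) at 230.6 (201 to 263), whose intervals overlap. Clusters 2 (MFAP4, CTNNA2, GAS1), 11 and 9 (MGP, CTSB) and epithelial-like cells followed at 203.0, 199.3, 183.2 and 165.1 CPM, each overlapping its neighbour. Dividing cells had 139.3 CPM, CM-like cluster 1 had 79.8 CPM and endothelial-like cells were lowest at 21.8 CPM (11.9 to 36.6). At D21 every cluster of 50 or more cells lay between 3.32 and 17.8 CPM and each neighbour in the order overlapped the next.

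**Figure D2:**
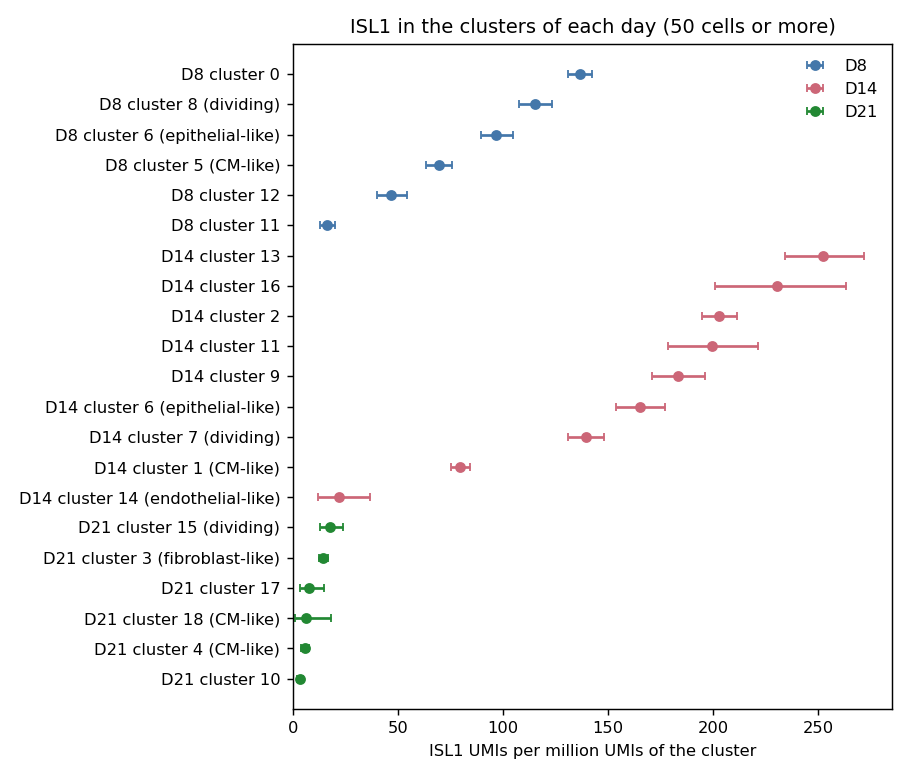
ISL1 in CPM by cluster and day, for clusters with 50 or more cells of that day, with exact 95% counting intervals. D14 clusters run from 252.5 in cluster 13 to 21.8 in endothelial-like cells, and D21 clusters of 50 or more cells are all at or below 17.8.

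The D14 gain was largest, among cell groups held by both libraries, in cluster 11, where ISL1 went from 16.3 CPM in 203 cells to 199 CPM in 74 cells, or 12.2-fold (log2 3.61, 3.26 to 3.97). Cluster 11 passed 5 of 8 epithelial and 4 of 8 surface ectoderm markers. Its epithelial markers summed to 1623.5 CPM at D8 and 3926.8 CPM at D14, and the part of a changed mix of cells in the gain was not tested. In epithelial-like cells ISL1 was 1.71-fold higher (log2 0.77, 0.62 to 0.92). NKX2-5, a cardiac homeodomain factor, was at 46.0 CPM in these cells at D14 against 359 CPM over all cells. In CM-like cells ISL1 was 69.4 CPM at D8 (530 UMIs) and 79.7 CPM at D14 (1156 UMIs), a log2 ratio of 0.20 (0.05 to 0.35), and 6.03 CPM at D21 (44 UMIs), a log2 ratio of −3.72 (−4.19 to −3.29). The first of these depended on where the CM-like boundary was drawn, with log2 ratios of 0.71 at a coarser and −0.92 at a finer clustering. Cells that were not CM-like had 99.2, 182 and 10.7 CPM, so ISL1 was 1.43-, 2.29- and 1.78-fold higher there than in CM-like cells. The D14 contrast rests on the same boundary, since CM-like cells had 114 CPM at the coarser and 36.7 CPM at the finer clustering.

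A single-cell look at D14 compared 1400 cells with an ISL1 UMI and 2185 without, all thinned to 4000 UMIs. NKX2-5 was detected in 64.1% of the first (61.6 to 66.7) and 65.9% of the second (63.9 to 67.9), and the intervals overlap. TNNT2, the cardiac troponin of the sarcomere, was in 40.9% (38.3 to 43.6) against 59.3% (57.2 to 61.3). EDNRA, the endothelin receptor used in the study as a surface stand-in for ISL1 progenitors, was in 12.6% (10.9 to 14.4) against 14.3% (12.9 to 15.9), while SIRPA, its surface marker for CMs, was in 3.0% (2.17 to 4.03) against 5.13% (4.24 to 6.14). These are mRNA shares, on days other than the sorting day. The study sorted its progenitors as cells with both proteins and its CMs as cells with SIRPA and no EDNRA. Each gene was taken alone here, so that gate was not tested. HAND1, a mesodermal and left ventricular factor, was in 53.2% against 33.0%. In the 53 D14 endothelial-like cells the thinned share was 37.7% for TNNT2 and 11.3% for NKX2-5. The source of these UMIs was not tested, and with so few cells the values are a rough guide. A share below or near them, such as 40.9% for TNNT2 in ISL1 cells, was not read as a sign of expression.

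**Figure D3:**
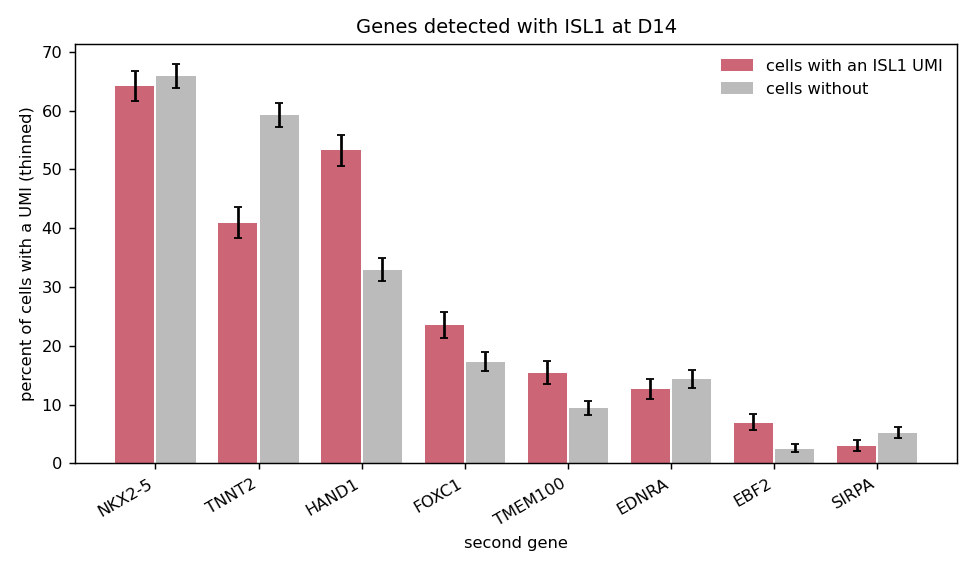
Percent of thinned D14 cells with a UMI of each partner gene, among cells with and without an ISL1 UMI, with exact 95% binomial intervals. The bars for NKX2-5 and EDNRA overlap and those for TNNT2 and HAND1 do not.

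Because the share of CM-like cells differs between the 2 sets, the same shares were taken inside each. In CM-like cells at D14 (242 with ISL1), NKX2-5 was in 85.5% against 84.4% and EDNRA in 22.3% against 22.1%, with TNNT2 in 89.7% against 98.6%. In the others (1158 with ISL1), NKX2-5 was in 59.7% against 54.3%, EDNRA in 10.5% against 9.41% and TNNT2 in 30.7% against 34.4%, both below the share in endothelial-like cells. Unthinned, the shares over all cells were 82.6% against 83.4% for NKX2-5, 31.2% against 34.7% for EDNRA and 70.7% against 84.0% for TNNT2. HAND1 was in more ISL1 cells within D14 cluster 2 as well, at 74.2% (70.2 to 77.9) of 520 against 62.0% (57.7 to 66.1) of 531. EDNRA itself was 44.8 CPM in CM-like and 10.7 CPM in other cells at D8, and 66.7 and 24.4 CPM at D14.

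EBF2, EYA1 and TBX1 were highest at D8, and SIX2 was too low to order D8 and D14, whose intervals overlap. EBF2 was at 850, 652 and 13 UMIs at D8, D14 and D21, or 18.2, 13.0 and 0.421 CPM, with log2 ratios of −0.49 (−0.64 to −0.34) and −4.95 (−5.86 to −4.16). At D8, cluster 0 held 62.8% of its UMIs. At D14 cluster 13 held 40.8% of its UMIs in 6.56% of the cells, at 95.01 CPM (83.9 to 107), next to 67.8 CPM in cluster 16 (52.3 to 86.4), intervals that overlap. In CM-like cells it was 1.57, 1.03 and 0 CPM (15 UMIs at D14 against 0 at D21). With the 0 set to 3 counts, or 0.411 CPM, D21 was 2.52-fold lower than D14, which is not a lower limit. The 95% intervals were 0.579 to 1.71 CPM at D14 and 0 to 0.505 CPM at D21. EBF2 was 13.6-fold higher outside CM-like cells at D8 and 17.2-fold at D14.

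Among the 179 thinned D8 cells with an EBF2 UMI, TMEM100 was detected in 15.1% against 3.79% of cells without one, and EYA1 in 11.2% against 2.58%. NKX2-5 was in 8.38% against 25.1% and MEF2C, a myogenic MADS-box factor, in 13.4% against 43.7%. At D14 (150 cells) ISL1 was in 64.0% against 38.0% and TMEM100 in 43.3% against 10.3%. No pair of intervals overlaps in these 6 comparisons. Cells with an EBF2 UMI thus more often held EYA1 and TMEM100 and less often NKX2-5 and MEF2C at D8 than the other cells did. For TMEM100 and MEF2C the same held inside cluster 0 at D8 (126 cells with EBF2 and 970 without). TMEM100 was in 15.9% (9.97 to 23.4) against 4.43% (3.23 to 5.93) and MEF2C in 15.1% against 42.4%. Shares of EYA1 and NKX2-5 inside cluster 0 are not given here. Inside cluster 13 at D14 (64 and 171 cells) the intervals overlapped for TMEM100, at 51.6% (38.7 to 64.3) against 38.6% (31.3 to 46.3), and for ISL1, at 64.1% (51.1 to 75.7) against 46.8% (39.1 to 54.6).

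EYA1 was at 377, 194 and 12 UMIs at D8, D14 and D21, or 8.06, 3.86 and 0.388 CPM, with log2 ratios of −1.06 (−1.32 to −0.81) and −3.31 (−4.29 to −2.48). It was highest in dividing cells at D8 (13.2 CPM) and cluster 0 (12.5 CPM), whose intervals overlap. At D21 it was left mainly in CM-like cells, where cluster 4 held 10 of 12 UMIs, and outside them 161 UMIs at D14 became 2 (log2 ratio −5.73, −8.79 to −3.86). In CM-like cells the D21 ratio was −0.73 (−1.92 to 0.32).

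TBX1, the T-box factor of pharyngeal mesoderm that is lost in most cases of DiGeorge syndrome, was at 332, 159 and 3 UMIs at D8, D14 and D21, or 7.10, 3.16 and 0.0971 CPM. Its log2 ratios were −1.17 (−1.45 to −0.89) and −5.03 (−7.32 to −3.45). At D8 it was 19.6 CPM in endothelial-like cells (11.2 to 31.9, 16 UMIs in 47 cells) and 11.5 CPM in cluster 0 (9.94 to 13.3), which overlap, against 3.01 CPM in CM-like cells. At D14 cluster 2 held 51.6% of its UMIs. SIX2, a homeodomain factor of nephron progenitors and mesenchyme, was at 25, 16 and 2 UMIs, or 0.535, 0.318 and 0.0647 CPM, and no more than 10 UMIs were in any cluster, so its distribution was not detectable at this depth.

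TMEM100 was at 933, 2747 and 156 UMIs at D8, D14 and D21, or 19.9, 54.7 and 5.05 CPM, with log2 ratios of 1.45 (1.35 to 1.56) and −3.44 (−3.68 to −3.20). At D8 endothelial-like cells had the highest level, 159.4 CPM (133 to 189), and at D14 they had 149.5 CPM (121 to 183) over 53 cells. At D14 clusters 13 and 9, neither of them named endothelial-like, had 252.9 (235 to 272) and 160.8 CPM and held 25.8% and 26.8% of its UMIs, in 6.56% and 8.90% of cells. In endothelial-like cells at D21 no UMI was seen in 38 cells, at least 29.2-fold lower than D14. In CM-like cells it was 2.75, 12.2 and 0.548 CPM, with log2 ratios of 2.15 (1.49 to 2.88) and −4.48 (−6.37 to −3.10).

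FOXC1, unlike the other 7 members, was within 2-fold at both steps. It was at 1998, 2984 and 1181 UMIs at D8, D14 and D21, or 42.7, 59.4 and 38.2 CPM, log2 ratios of 0.48 (0.39 to 0.56) and −0.64 (−0.73 to −0.54). The second ratio moved with the mitochondrial limit on cells, from 0.07 at a limit of 5% to −1.22 at 20%. At D21 cluster 3, the fibroblast-like cells, held 72.7% of its UMIs in 42.4% of cells at 76.6 CPM, against 2.05 CPM in CM-like cells, 37.3-fold higher. ISL1 was 14.5 against 6.03 CPM in the same groups, 2.41-fold. Dividing cells were in different clusters on these days, with 78.3 CPM in D14 cluster 7 and 95.6 CPM in D21 cluster 15, while the 37 D21 cells of cluster 7 had 11.1 CPM (4.46 to 22.9). Clusters 7 and 17 were not counted as CM-like at D21. Their CM markers summed to 18790.5 and 15088.9 CPM there, against 29574.3 CPM in CM-like cells. FOXC1 was at 47.1 CPM (35.4 to 61.4) in the 58 cells of cluster 17. Fibroblast markers summed to 3108.6 CPM in cluster 17, against 255.6 CPM in D21 CM-like cells. Its median depth was 19310.5 UMIs a cell, against 12983 in CM-like cluster 4. The part of a mix of cells in this FOXC1 level was not tested. In CM-like cells FOXC1 was 31.6, 26.2 and 2.05 CPM, the last 12.7-fold below D14 (log2 −3.67, −4.52 to −2.93). FOXC2, its close paralogue with a lower count, was 1.43, 3.98 and 0.712 CPM (67, 200 and 22 UMIs), log2 ratios of 1.47 (1.07 to 1.90) and −2.48 (−3.19 to −1.84), and 17 of its 22 D21 UMIs were in cluster 3. In CM-like cells FOXC2 was at 42 UMIs at D14 and 0 at D21, 7.05-fold lower with the 0 set to 3 counts.

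**Figure D4:**
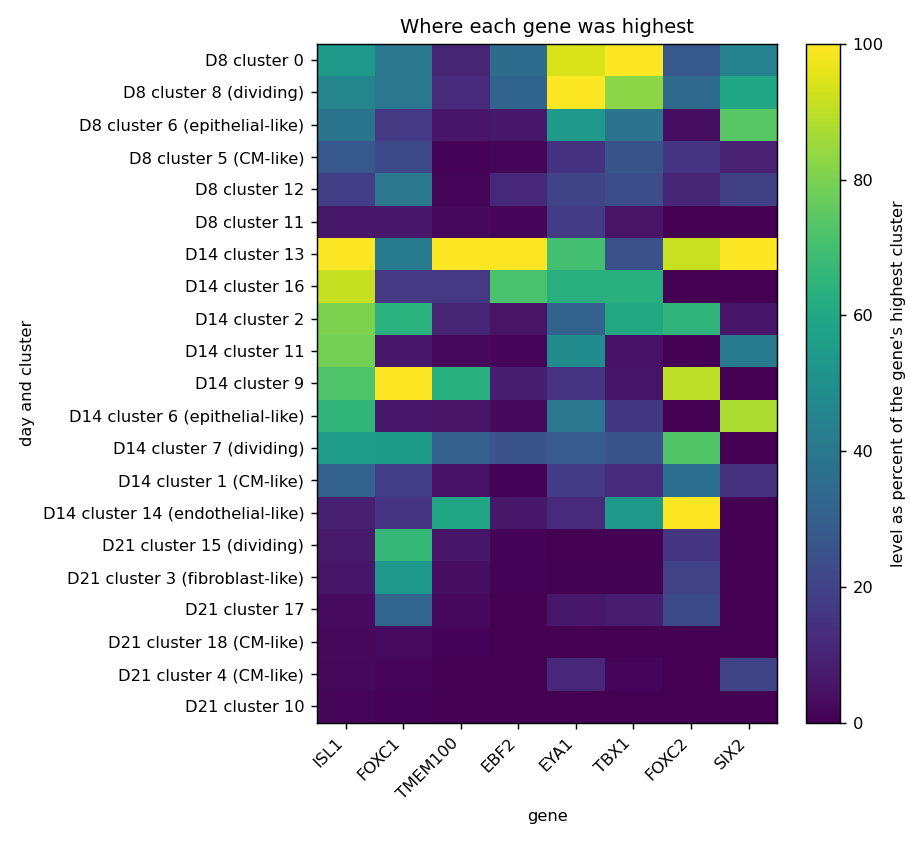
Level of each gene in each of the 21 groups of a day and cluster with at least 50 cells, as percent of that gene's highest group. ISL1 covers many D8 and D14 groups, EBF2 and TMEM100 are highest in D14 cluster 13, and FOXC1 extends to D21 fibroblast-like cells.

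Read together, over all cells, 2 of 8 members (FOXC2 and TMEM100) were 2-fold or more higher at D14 than D8, against a background of 14.4% of all genes, and 2 (TBX1 and EYA1) were 2-fold or more lower, against 6.32%. The members' median log2 ratio was −0.005, beside 0.12 over 19216 genes. From D14 to D21, 0 were higher (9.12% of all genes) and 7 of 8, all but FOXC1, were lower (22.4%), with a median of −3.38 beside −0.30 over 18776 genes. The SIX2 interval (log2 −5.46 to −0.21) extends past the 2-fold limit. With a mitochondrial limit of 5% the SIX2 ratio at D21 was −0.45 and the EYA1 ratio at D14 was −0.91, so neither was past 2-fold there. In CM-like cells, 7 members had enough UMIs. Of these 2 were higher at D14 (16.1% of genes) and 1 lower (4.86%), and at D21 0 were higher (6.40%) and 6 lower (24.3%), EYA1 being the other. In the remaining cells 2 were higher (13.0%) and 2 lower (6.59%) at D14, and 0 were higher (9.76%) and 7 lower (22.4%) at D21.

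**Figure D5:**
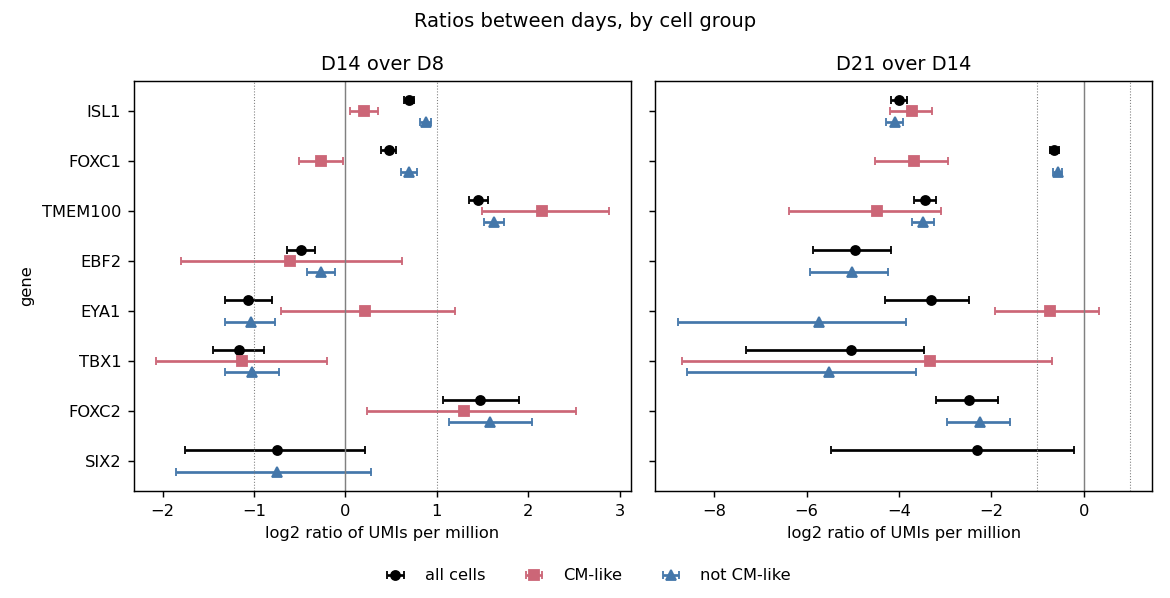
Log2 ratio of each gene between days over all cells, CM-like cells and other cells, with exact 95% intervals; groups with no UMI or under 10 UMIs are left out. FOXC1 at D21 against D14 is −0.64 over all cells but −3.67 in CM-like cells.

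Several members were seen in the same cell. In thinned cells, 44.9%, 56.5% and 16.9% held at least 1 member at D8, D14 and D21, 12.5%, 18.7% and 1.70% at least 2, and 2.37%, 3.57% and 0.0514% at least 3. Unthinned, 57 cells at D8 and 39 at D14 held 5 or more, and none did at D21. The shares that independent detection of each member would give were not computed. The shares of cells with several members were therefore not read as co-expression of the set. Of the 72 thinned D21 cells with ISL1, 51 were fibroblast-like, and among fibroblast-like cells FOXC1 was in 39.2% with ISL1 (25.8 to 53.9) against 23.2% without (20.3 to 26.4), intervals that overlap.

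In the wider gene lists, both directions occurred. The median log2 ratios at D14 against D8 were 0.12 for paralogs, 0.58 for cardiopharyngeal factors, 0.11 for posterior genes, 0.64 for ligands and receptors and 0.62 for BMP and ALK1 response genes, beside 0.12 over all genes. At D21 against D14 they were −1.11, −0.18, −0.16, −0.43 and −0.99, beside −0.30. Of 12 paralogs of the members, 2 were 2-fold higher and 3 lower at D14, and of 10 read at D21, 1 was higher and 5 were lower, with EBF3 at 2.99, 18.1 and 1.78 CPM. EYA3 was 17.4, 13.7 and 15.3 CPM and SIX5 11.2, 14.4 and 10.6 CPM. Of the cardiopharyngeal transcription factors 6 of 14 were higher and 2 lower at D14, then 3 of 15 higher and 6 lower, with NKX2-5 at 94.3, 359 and 129 CPM and HAND2, a factor of ventricle and outflow tract, at 46.1, 318 and 122 CPM. HAND1 was 41.3, 194 and 36.5 CPM and MEF2C 213, 212 and 50.8 CPM. Of 10 posterior second heart field genes 3 were higher and 2 lower at D14, and 2 higher and 2 lower at D21, and TBX5, the atrial and left ventricular T-box factor, was 1.39, 3.20 and 10.0 CPM. NR2F2, an atrial nuclear receptor, was 10.8, 30.5 and 42.5 CPM, PTCH1, a hedgehog receptor, 21.3, 15.3 and 8.25 CPM, and WNT2 0.663, 10.0 and 5.95 CPM. Of 14 ligands and receptors 6 were higher and 2 lower at D14, and 1 higher and 4 lower at D21, with CXCL12, a chemokine, at 19.2, 175 and 249 CPM, and PDGFRA, a receptor of mesenchyme, at 130, 31.8 and 30.1 CPM. FGFR1 was 126, 90.4 and 61.3 CPM and BMP4 50.2, 82.8 and 92.6 CPM. Of 10 BMP and ALK1 response genes 2 were higher and 1 lower at D14, then 0 higher and 5 lower, with ID1 at 1067, 1536 and 484 CPM and ENG at 2.48, 126 and 71.0 CPM. ID3 was 740, 1140 and 503 CPM and ID2 339, 649 and 276 CPM.

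Genes whose pattern over the 21 groups was most like each member, by Pearson r of log2(CPM + 1) among 14018 genes, were as follows; the groups share 3 libraries, so r is a description. For ISL1 they were CTD-2314G24.2 (0.956), COX4I2 (0.921) and MORF4L2-AS1 (0.915), for EBF2 LINC00693 (0.892) and PRRX2 (0.878), and for TBX1 TMEM190 (0.849) and PTPRG (0.846). For EYA1 they were TMEM190 (0.888), CREB3L4 (0.877) and MORF4L2-AS1 (0.867), and for FOXC1 PCOLCE (0.908), LSAMP (0.875) and LDLRAD3 (0.868). For FOXC2 they were EBF3 (0.913), LINC00877 (0.898) and VAV3 (0.873), for TMEM100 LAYN (0.904), PLXND1 (0.892) and IGLON5 (0.887), and for SIX2 TRPC4 (0.742), RP11-44F21.5 (0.727) and UNC5D (0.721). Among the members, ISL1 was most like EYA1 (0.818).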

How the data were processed

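Per the labels and the study's methods, organoids were dissociated with TrypLE and libraries were made with Chromium 3' v2 chemistry. The authors deposited a merged table of raw UMI counts for 17327 barcodes and 32738 genes, and the submitters' processing notes name Cell Ranger, Seurat 3.2.1 and hg19. The day of each barcode was read from its column name. As in the study's methods, a barcode was kept with a gene number above 2000 and below 7500 and with a mitochondrial share of UMIs below 10%. Counts were summed per day and cell group and given as CPM, with exact Poisson intervals. Ratios took their interval from the split of the counts, genes needed 10 UMIs over both days, a count of 0 was set to 3, and called means 2-fold or more. Clusters came from Seurat 5.3.0 in R 4.3.3 (2000 variable genes without the members and lists, 20 components, resolution 0.8, no integration) and took a name from at least 3 markers. Scrublet in scanpy 1.11.5 called 12 of 10039 cells as doublets, a share too low to rely on, so no cell was removed and doublets were left in the data. Sums and intervals were made in Python 3.11.15 with numpy 2.4.6, scipy 1.17.1 and pandas 2.3.3, figures in matplotlib 3.10.9, and TMM factors in edgeR 4.0.16. The interval calculation was tested on simulated data. Named genes are the 8 members, the 4 genes with most UMIs in each list, NKX2-5, TNNT2, EDNRA and SIRPA, and for each member the 3 genes most like it. The members and lists were chosen with earlier results of these data known. The alternative without CM-like cells was added after the data were seen. Values of 1 further gene that this rule selects are not reported here.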

Additional observations from a re-analysis of the deposited data

Results flagged for a closer look

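EYA1 and FOXC1 had ratios of opposite sign in different cell groups between D8 and D14. The log2 ratio of EYA1 was 1.44 in cluster 11 (12 UMIs at D8 and 11 at D14) and −1.79 in dividing cells (93 and 30 UMIs). That of FOXC1 was 0.40 in dividing cells (402 and 592 UMIs) and −1.30 in epithelial-like cells (157 and 46 UMIs). The dividing cells were in different clusters on these days, cluster 8 at D8 and mainly cluster 7 at D14, which held no D8 cell. In cluster 8 FOXC1 was at 57.3 CPM in 350 D8 cells (51.8 to 63.1) and 32.7 CPM in 23 D14 cells (17.9 to 54.9), intervals that overlap. The positive ratio in dividing cells is thus mainly between different clusters, and the part of that change in it was not tested. With 1 library a day these differences between groups were not tested.

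The 1982 D21 barcodes at or over the mitochondrial limit, which enter no comparison above, held 103 UMIs of ISL1 (3.73 CPM), 197 of FOXC1 (7.14 CPM), 34 of EYA1 (1.23 CPM), 28 of TMEM100 (1.01 CPM) and 8 of TBX1 (0.290 CPM). In the kept D21 cells the levels were 9.61, 38.2, 0.388, 5.05 and 0.0971 CPM, and the TBX1 intervals of the 2 sets overlap. TNNT2 was at 6122 CPM in the barcodes left out, 2659 CPM in all kept D21 cells and 8867 CPM in the kept CM-like cells, where EYA1 was at 1.37 CPM and FOXC1 at 2.05 CPM. The differences between the 2 sets were not tested.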

How the results depend on the processing

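No paired analysis was possible because each day has 1 library, and for the same reason no replicate could be left out. The fall of ISL1 at D21 kept its direction and stayed past 2-fold under every alternative run. Over all cells the log2 ratio of ISL1 at D14 against D8 was 0.69, and it was 0.89 with a mitochondrial limit of 5%, 0.64 with 20%, 0.58 with TMM scaling, 0.57 with median-of-ratios scaling and 0.88 without CM-like cells. At D21 against D14 it was −3.99, and −3.52, −4.35, −3.71 and −3.70 under the first 4 of these. The TMM scaling moved all log2 ratios over all cells by −0.11 at D14 and 0.28 at D21. In CM-like cells the D14 ratio of ISL1 changed sign, from 0.20 to −0.83 with a limit of 5% and −0.92 at resolution 1.2, where 331 and 674 D14 cells were CM-like, and it was 0.71 at resolution 0.4 and 0.42 with all variable genes kept; its direction is not settled by these data. The D21 ratio in CM-like cells was −3.72, and −4.45 with a limit of 20%, −2.70 at resolution 1.2 and −4.35 as a mean over cells. With a limit of 5% only 2 CM-like cells were left at D21 and no ratio was taken. With that limit 1 member, not 2, was 2-fold lower at D14, and 6 of 8 were lower at D21, against 8 of 8 with a limit of 20%. Among D14 cells with ISL1, the shares with NKX2-5, EDNRA and TNNT2 were 82.6%, 31.2% and 70.7% without thinning and 44.2%, 5.97% and 26.6% thinned to 2000 UMIs, and TNNT2 was 37.4% with a limit of 5%. The other called ratios of members gave 134 values over 10 settings, each ratio counted once for every setting in which it was taken. Of these values 129 stayed past 2-fold. Not every ratio was taken in every setting. The largest move, among called and uncalled ratios, was 3.04 log2 units. Counts of SIX2 on every day and of TBX1 at D21 were too few to place these genes among cell groups.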
